A study of Mus musculus with 21 samples.

Results

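Fcgr3 and Fcgr2b encode the low-affinity receptors for IgG known as CD16 and CD32, the proteins that antibodies to CD16/32 recognise when granulocyte-macrophage progenitors (GMP) are sorted from mouse bone marrow. Fcer1g encodes the gamma chain with which the Fcgr3 product pairs at the cell surface. All probe sets that the platform annotation ties to these 3 genes alone were taken, which gave 7 of 45101 probe sets and 3 of the 18194 genes with such a probe set: 1448620_at for Fcgr3, 1418340_at for Fcer1g, and 1435476_a_at, 1435477_s_at, 1447622_at, 1451941_a_at and 1455332_x_at for Fcgr2b. No probe set shared with another gene named a member.

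The study asked what loss of Dot1l, the methyltransferase of histone H3 lysine 79, does to RNA levels in 2 bone marrow populations of C57/BL6 mice. LSK cells are lineage-negative, Sca-1-positive and Kit-positive stem and early progenitor cells, and GMP are committed to granulocytes and macrophages. LSK-Control (6 arrays) and GMP-Control (5 arrays) came from mice of the genotype Dot1 wt/wt x Mx-Cre, and LSK-Dot (6 arrays) and GMP-Dot (4 arrays) from Dot1l fl/fl x Mx-Cre mice in which PIPC had deleted both alleles (Dot1l -/-). The design text reads as PIPC given to the mice of every group, and all 4 groups carry Mx-Cre, whose interferon-inducible promoter acts in many cell types and is not specific to blood cells. Age, PIPC dose, the time between injection and sorting, and the antibodies used are not stated in the labels. The labels do not say that the arrays of a group are separate animals, so p-values measure the spread between arrays, which may be technical.

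Activating Fc gamma receptors such as CD16 have no signalling motif of their own and depend on the ITAM (immunoreceptor tyrosine-based activation motif) of the Fcer1g chain, which recruits Syk and starts phagocytosis and degranulation. CD32, the product of Fcgr2b, carries an inhibitory motif (ITIM) instead, recruits the phosphatase SHIP1 and raises the threshold for activation in myeloid and B cells. On early myeloid progenitors a high CD16/32 signal is the textbook mark that separates GMP from the other progenitors, so a difference in Fcgr3 or Fcgr2b between GMP and LSK cells is given below as a description with no test.

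The promoters of the 3 genes are shown because Fcgr3 and Fcer1g were both higher in GMP while Fcgr2b was not uniformly so. RefSeq sequences of GRCm38.p6 run from 250 bases before to 50 after each start site, on the minus strand of chromosome 1: chr1:171059354-171059653 for Fcgr3, chr1:170976022-170976321 for Fcgr2b and chr1:171234300-171234599 for Fcer1g. A further Fcgr3 entry, shifted by 9 bases, is not shown. Capitals mark every match, on either strand, to 4 motifs of factors that act in myeloid and blood cells. The core of PU.1 sites was searched as GAGGAA and the C/EBP motif as TTGCNNAA. The core of RUNX sites was searched as TGTGGT, and that of GATA factor sites was searched with the letters AGATAA.
Fcgr3: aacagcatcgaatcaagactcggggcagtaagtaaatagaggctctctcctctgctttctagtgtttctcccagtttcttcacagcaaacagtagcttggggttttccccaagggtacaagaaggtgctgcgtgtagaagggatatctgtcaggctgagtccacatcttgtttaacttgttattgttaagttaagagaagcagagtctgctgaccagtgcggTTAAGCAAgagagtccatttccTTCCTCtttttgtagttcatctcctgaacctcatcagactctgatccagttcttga
Fcgr2b: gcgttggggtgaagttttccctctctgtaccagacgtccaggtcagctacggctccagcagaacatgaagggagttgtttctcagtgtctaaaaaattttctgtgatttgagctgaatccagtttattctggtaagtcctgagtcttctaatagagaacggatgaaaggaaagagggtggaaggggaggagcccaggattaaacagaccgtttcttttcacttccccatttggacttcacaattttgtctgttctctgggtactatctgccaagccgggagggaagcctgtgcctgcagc
Fcer1g: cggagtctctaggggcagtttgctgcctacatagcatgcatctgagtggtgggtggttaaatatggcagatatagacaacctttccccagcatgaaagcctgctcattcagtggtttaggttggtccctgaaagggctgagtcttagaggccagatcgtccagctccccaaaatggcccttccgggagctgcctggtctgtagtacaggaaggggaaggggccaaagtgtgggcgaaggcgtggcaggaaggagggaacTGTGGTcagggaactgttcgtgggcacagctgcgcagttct
The Fcgr3 window held the PU.1 core, with its first base at -6 from the start site, and the C/EBP motif at -28, both on the reverse strand and with no overlap. Fcer1g held the RUNX core at 9 bases after its start, and in Fcgr2b none of the 4 letter strings occurred. Of 32851 promoter windows of this length, 28.3% held the PU.1 core, 16.8% the RUNX core, 11.2% the GATA core and 10.8% the C/EBP motif, and a match here describes letters only.

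All levels are log2 of the deposited intensity, so 1 unit is a 2-fold difference, and differences are tested with limma over all probe sets at a Benjamini-Hochberg adjusted p of 0.05 ("called"). Array medians lay between 25.2 and 31.5 on the linear scale. The upper quartile of an array's log2 values was 6.60 to 6.76 in LSK-Control and 6.19 to 6.57 in GMP-Control, with no overlap. The LSK-Dot array K1272 stood apart, with a mean Spearman correlation of 0.684 to its own group, while GMP-Dot K1190 and K1272 were the most alike of the GMP-Dot arrays at 0.982. Marker lists bore out the cell labels in the controls: 6 of 6 measured GMP-like genes were called higher and 5 of 5 LSK-like genes lower in GMP-Control than in LSK-Control. Mean LSK-like marker levels ran from 5.54 to 9.41 in LSK-Dot against 8.79 to 9.48 in LSK-Control. The brightest Dot1l probe set, 1457268_at, did not separate the genotypes, with means of 6.48 in LSK-Control, 6.37 in LSK-Dot, 6.74 in GMP-Control and 6.22 in GMP-Dot, and no label places it inside or outside the floxed stretch, so it does not check the deletion. Of the sort markers, mean Kit levels were 9.12, 7.95, 6.49 and 7.73 in the same order, Cd34 gave 10.22, 9.23, 8.30 and 9.22, and Il7r stayed between 2.86 and 4.14. In such bulk samples, fewer cells of a type and less RNA per cell cannot be told apart.

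**Figure D1:**
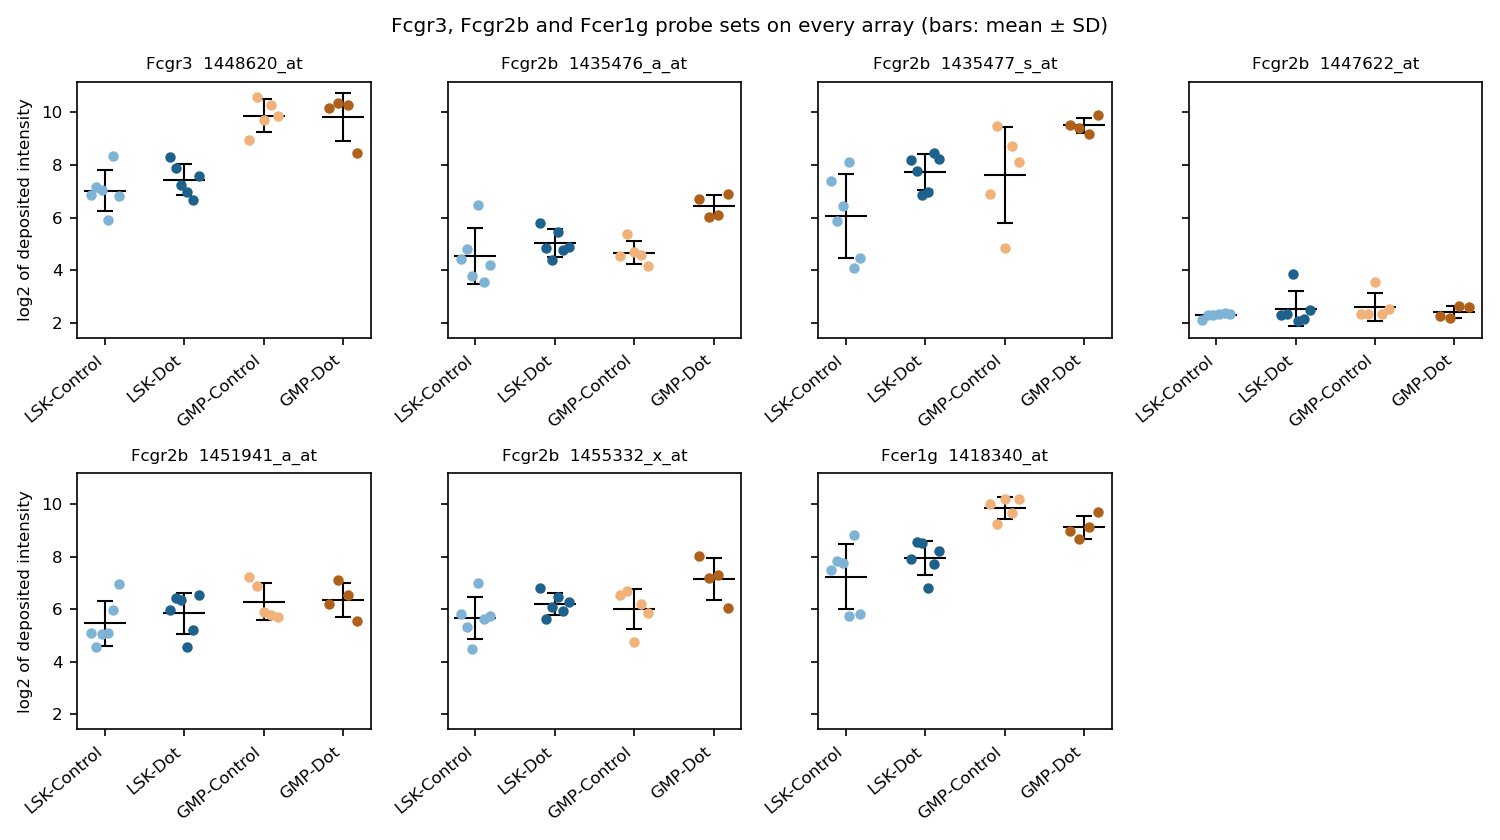
Level of each of the 7 probe sets on every array, as log2 of the deposited intensity (vertical axis), by group (horizontal axis). Points are arrays, the long bar is the group mean and the whiskers are 1 SD. Fcgr3 and Fcer1g sit higher in both GMP groups, and the 5 Fcgr2b panels differ from each other.

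Fcgr3 was the member with the widest gap between the cell types. In GMP-Control the 5 arrays K1601, K1602, K1603, K1604 and K1581 measured 8.94, 10.60, 9.71, 10.27 and 9.88, and in GMP-Dot the 4 arrays K1190, K1272, K1359 and K1421 measured 10.18, 10.37, 10.28 and 8.46. LSK-Control ran from 5.90 through a median of 6.96 to 8.36 and LSK-Dot from 6.66 through 7.41 to 8.29. GMP-Control lay wholly above LSK-Control, as for 9.81% of all probe sets, and GMP-Dot wholly above LSK-Dot, as for 0.987%. K1421 was the lowest GMP-Dot array by a wide margin, and its 8.46 was only just above the highest LSK-Control array, at 8.36. The order of group means was GMP-Control (9.88 ± 0.63, SD, n = 5), GMP-Dot (9.82 ± 0.91, n = 4), LSK-Dot (7.44 ± 0.60, n = 6) and LSK-Control (7.02 ± 0.79, n = 6), and neighbours within a cell type did not differ beyond their spread. Control GMP exceeded control LSK by 2.86 ± 0.42 (SE), or 7.25-fold, and deleted GMP exceeded deleted LSK by 2.38 ± 0.45, or 5.22-fold. Its median place on an array was the 87.2th percentile of all probe sets.

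Fcer1g showed a gap of nearly the same size in controls, and this gap was tested. Its product pairs with that of Fcgr3 at the cell surface, so a gate on the Fcgr3 product may also select for Fcer1g. The part of such selection in the Fcer1g gap, in control or in deleted cells, was not tested. GMP-Control measured 10.01, 9.24, 10.20, 9.65 and 10.18 in the array order given for Fcgr3, and LSK-Control ran from 5.73 through 7.62 to 8.83. All 5 GMP-Control arrays lay above the 6 LSK-Control arrays. The difference was 2.62 ± 0.46 (SE), a 6.14-fold higher level, with an adjusted p of 0.00215 by limma. Of all probe sets, 5.24% were called higher in this comparison and 9.81% had GMP ranges wholly above the LSK range. The call held in every one of the 31 alternatives run, at limma adjusted p between 0.00056 and 0.0482. The largest came with each array's upper quartile as a covariate, where 820 of all probe sets were called in place of 4325.

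Between the deleted populations the Fcer1g gap was smaller. GMP-Dot measured 8.97, 8.67, 9.11 and 9.70, and LSK-Dot ran from 6.79 through 8.06 to 8.56. The 4 GMP-Dot arrays again lay above all 6 LSK-Dot arrays, K1272 by the narrowest margin. The difference of 1.16 ± 0.49 (SE), or 2.23-fold (1.27 without LSK-Dot K1272, and 0.92 to 1.30 with each array left out), was not called (limma adjusted p = 0.662), in a comparison where 0.0399% of probe sets were called higher and 0.987% had ranges apart in this direction. The order of means was GMP-Control (9.86 ± 0.41), GMP-Dot (9.11 ± 0.43), LSK-Dot (7.95 ± 0.66) and LSK-Control (7.24 ± 1.23).

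In LSK-Control, Fcer1g and Fcgr3 were highest on the same array, K1581, at 8.83 and 8.36. That array also had the highest mean over 10 late neutrophil genes, 11.28, against 7.09 to 9.34 on the other 5, and the highest monocyte mean, 7.15 against 5.72 to 6.34. Its B cell mean, 5.98, and dendritic mean, 7.44, were the highest of the group too. The Fcgr2b probe sets 1435476_a_at (3.57) and 1435477_s_at (4.07) were at their LSK-Control lowest on it, and the other Fcgr2b probe sets were not. The lowest Fcer1g arrays, K1604 (5.73) and K1553 (5.80), had late neutrophil means of 7.26 and 7.09. In LSK-Dot these late neutrophil means were 5.49 to 7.31. The part of such cells in the LSK levels was not tested, and with each array left out the control gap was 2.32 (without K1604) to 2.94 (without K1581) for Fcer1g and 2.63 to 3.12 for Fcgr3, by the same arrays.

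The 5 Fcgr2b probe sets did not give a single pattern between the cell types. The control GMP-minus-LSK differences were 0.13 ± 0.41 (SE) for 1435476_a_at, 1.57 ± 0.73 for 1435477_s_at, 0.32 ± 0.28 for 1447622_at, 0.83 ± 0.45 for 1451941_a_at and 0.34 ± 0.41 for 1455332_x_at, and all 5 pairs of ranges overlapped. Between deleted populations they were 1.40 ± 0.43, 1.76 ± 0.78, -0.12 ± 0.30, 0.51 ± 0.48 and 0.96 ± 0.44. GMP-Dot lay wholly above LSK-Dot for 1435476_a_at and 1435477_s_at, as for 0.987% of all probe sets, and overlapped it for the others. All 5 control differences were smaller than the 2.86 of Fcgr3, and the difference between the genes was not tested.

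**Figure D2:**
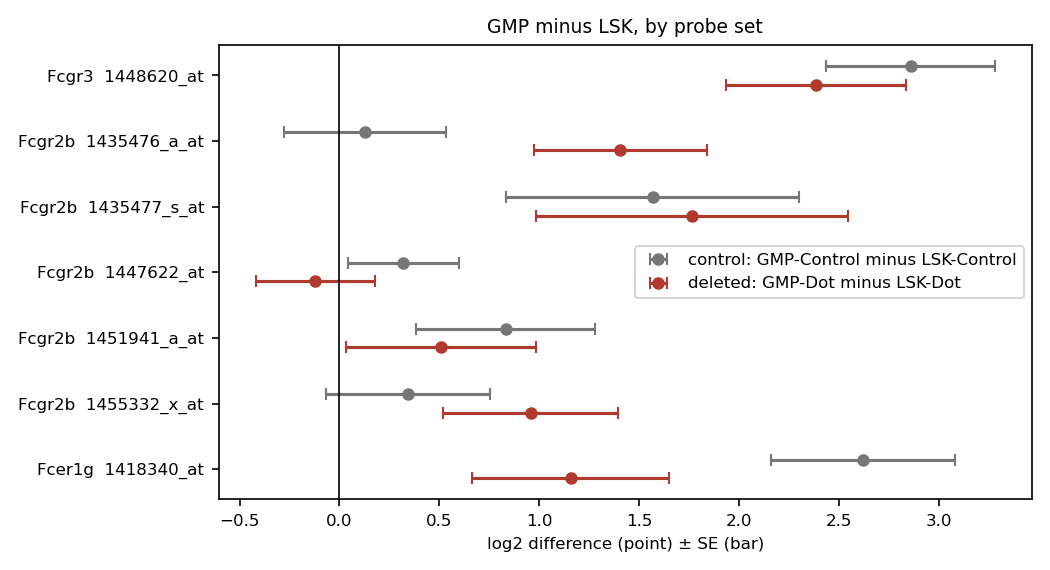
GMP minus LSK difference of each probe set (horizontal axis, log2 units) in control and in deleted cells. Points are limma differences and bars their SE. Fcgr3 lies at 2.86 and 2.38, Fcer1g at 2.62 and 1.16, and the Fcgr2b probe sets between -0.12 and 1.76.

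The 5 probe sets differ in how they were made. The annotation ties 1435476_a_at, 1435477_s_at and 1455332_x_at to the same source sequence, and 1451941_a_at and 1447622_at each to another. The endings _s_at and _x_at are the maker's marks for probes that may also match other transcripts, and _a_at marks probes for several transcripts of a gene. Fcgr2b and Fcgr3 are alike in the sequence of their extracellular parts, so how far each Fcgr2b probe set reads Fcgr2b alone is uncertain. Over the 21 arrays the 3 sets of shared source correlated at Pearson r between 0.66 and 0.73 with each other, and with group means removed at 0.42 to 0.52. 1451941_a_at correlated with them at 0.03, 0.13 and 0.36. 1447622_at gave almost no signal, at a median 0.97th percentile of its array, and its group means lay between 2.29 and 2.61. Against Fcgr3 itself, r was highest for 1451941_a_at, at 0.52 over all arrays and 0.32 with group means removed. It was 0.41 and -0.14 for 1435477_s_at, 0.37 and 0.10 for 1455332_x_at, 0.22 and -0.36 for 1435476_a_at, and 0.10 and -0.08 for 1447622_at. These correlations describe arrays that share cell type and normalization.

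With Dot1l deleted, the mean GMP level was higher by 1.13 to 1.89 on the 3 Fcgr2b probe sets of shared source, and none of the differences was called by limma. 1435476_a_at measured 4.55, 5.38, 4.68, 4.58 and 4.17 in GMP-Control and 6.69, 6.01, 6.12 and 6.91 in GMP-Dot. Every deleted array was above every control array, as was so for 1.86% of all probe sets. The difference was 1.76 ± 0.45 (SE, 95% interval 0.82 to 2.70), or 3.39-fold. The exact two-sided permutation test gave p = 0.0079, the smallest that 5 against 4 arrays allow, while limma gave p = 0.0008 and an adjusted p of 0.138. The permutation test took GMP-Dot K1190 and K1272 as separate arrays and was not rerun with them averaged. Over the alternatives the adjusted p ranged from 0.000485 to 0.380, and leaving out LSK-Control K1604, which enters through the shared spread, took it to 0.0464. Without LSK-Dot K1272 it was 0.0532, and with the alike arrays GMP-Dot K1190 and K1272 averaged as 1 sample it was 0.309 at a difference of 1.79. In this comparison 0.0754% of all probe sets were called, and 0 of the 7 members, while the median difference over all probe sets was -0.17.

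1435477_s_at measured 6.91, 9.50, 4.83, 8.74 and 8.13 in GMP-Control and 9.54, 9.43, 9.19 and 9.89 in GMP-Dot. The control arrays spread widely, K1602 reaching the deleted range, and 2 of 4 deleted arrays exceeded it. The difference was 1.89 ± 0.81 (SE, or 1.19 without GMP-Control K1603), with a limma adjusted p of 0.338 and an exact permutation p of 0.0635. 1455332_x_at measured 6.56, 6.67, 4.77, 6.18 and 5.86 against 8.02, 7.19, 7.29 and 6.06. Here 3 of 4 deleted arrays lay above all controls and K1421 fell among them, and the difference of 1.13 ± 0.45 had a limma adjusted p of 0.311 and an exact permutation p of 0.0714. At an unadjusted p under 0.05 these 3 of the 7 members were higher, as were 5.82% of all probe sets.

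The other Fcgr2b probe sets did not share the shift. 1451941_a_at measured 7.21, 6.86, 5.87, 5.78 and 5.71 in GMP-Control and 6.19, 7.10, 6.55 and 5.54 in GMP-Dot, and the ranges overlapped almost wholly. Its difference was 0.06 ± 0.49 (SE, limma adjusted p = 0.960), and that of the dim 1447622_at was -0.20 ± 0.31 (adjusted p = 0.764). The GMP-Dot array K1421 was the highest of its group for 1435476_a_at and 1435477_s_at and the lowest for 1451941_a_at, 1455332_x_at and Fcgr3. The mean of the 5 probe sets, an alternative summary, differed by 0.93 ± 0.28 with an adjusted p of 0.186.

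**Figure D3:**
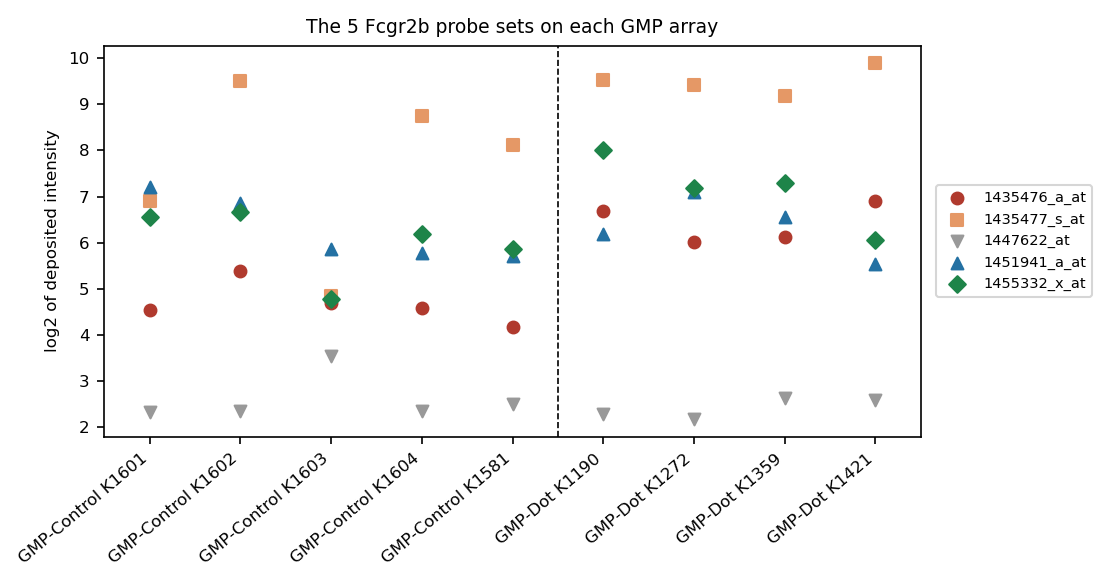
The 5 Fcgr2b probe sets (symbols) on each GMP array (horizontal axis), as log2 of the deposited intensity. Left of the dashed line are the 5 control arrays and right of it the 4 deleted arrays, where 1435476_a_at lies at 6.01 to 6.91 against 4.17 to 5.38.

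Fcgr3 and Fcer1g were not higher in GMP-Dot alongside those Fcgr2b probe sets. Fcgr3 differed by -0.06 ± 0.47 between GMP-Dot and GMP-Control (SE, 95% interval -1.04 to 0.91, limma adjusted p = 0.957, exact permutation p = 0.897), and the ranges listed above overlap. Fcer1g differed by -0.75 ± 0.51 (95% interval -1.81 to 0.32), with an adjusted p of 0.499 and an exact permutation p of 0.0397. Of the 4 deleted arrays K1421 reached into the control range, and the other 3 lay below it. The intervals leave room for changes of up to about a log2 unit in Fcgr3 in either direction. If GMP of both genotypes were sorted for a high signal of the Fcgr3 and Fcgr2b products, the gate may draw these levels together. The GMP differences of Fcgr3 and Fcgr2b then describe cells that passed the gate, and a lack of difference does not show a lack of effect. The part of the gate in these values was not tested.

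Beside these GMP values, the list means of markers of cells that can carry Fc receptors overlapped between the groups or were lower in GMP-Dot. The mean over 10 monocyte genes was 6.91 to 7.86 in GMP-Control and 7.29 to 8.0 in GMP-Dot, and that over 8 mast cell and basophil genes was 5.69 to 7.23 and 5.83 to 6.97. The mean over 7 B cell genes was lower in GMP-Dot, at 4.60 to 5.09 against 5.31 to 6.0, and the late neutrophil mean was 6.45 to 7.25 against 7.32 to 7.85. The mean over 4 eosinophil genes was also lower, at 4.19 to 4.72 against 5.31 to 6.02. The part of any of these cells in the GMP values was not tested.

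In LSK cells all 7 differences between deleted and control arrays were above 0 and none was called by limma, in a comparison where 0.00443% of all probe sets were. The median difference over all probe sets was also above 0, at 0.051. Of the 7 probe sets 5 are of Fcgr2b, so they are not separate observations, and 1447622_at turned to -0.022 without LSK-Dot K1272. The largest difference was that of 1435477_s_at, for which LSK-Control ran from 4.07 through a median of 6.15 to 8.12 and LSK-Dot from 6.85 through 7.99 to 8.46. The ranges overlapped, with 3 of 6 deleted arrays above the highest control. None of the 7 members had deleted arrays wholly above the controls, as 0.144% of all probe sets did. The difference was 1.69 ± 0.70 (SE, 95% interval 0.23 to 3.15), or 3.22-fold, with an exact permutation p of 0.0390 and a limma adjusted p of 0.828. With each array left out in turn it lay between 1.29 (without LSK-Control K1581) and 2.10 (without LSK-Control K1604). This probe set was the only member higher at an unadjusted p under 0.05, against 2.73%.

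The remaining LSK differences were smaller. 1435476_a_at ran from 3.57 through 4.31 to 6.50 in LSK-Control and from 4.38 through 4.88 to 5.81 in LSK-Dot, a difference of 0.49 ± 0.39. For 1455332_x_at it was 0.52 ± 0.39, for 1451941_a_at 0.38 ± 0.43 and for 1447622_at 0.24 ± 0.27. Fcgr3 differed by 0.41 ± 0.40 (95% interval -0.43 to 1.25) and Fcer1g by 0.72 ± 0.44 (95% interval -0.20 to 1.64). Single control arrays moved these values by over 1.5 times. Without LSK-Control K1604, Fcgr3 differed by 0.19, Fcer1g by 0.41 and 1435476_a_at by 0.88, and without LSK-Control K1581 by 0.68, 1.03 and 0.29. With each array left out, 1451941_a_at ranged from 0.20 to 0.69 and 1455332_x_at from 0.29 to 0.79. Each had overlapping ranges, a limma adjusted p of 0.990 and an exact permutation p between 0.195 and 0.632.

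Some marker means also differed between LSK-Dot and LSK-Control, and their relation to the member values array by array was not tested. The mean over 6 GMP-like and primary granule genes was 8.35 to 9.34 in LSK-Control and 7.58 to 10.87 in LSK-Dot, where 5 of 6 arrays lay above the highest control, and 6 of 6 genes had a difference above 0 with 0 called by limma. The monocyte mean was 7.22 to 7.38 on 4 LSK-Dot arrays, 4.95 and 5.18 on K1272 and K1359, and 5.72 to 7.15 in LSK-Control. The LSK-like and late neutrophil means, given above, reached lower in LSK-Dot, and both ranges overlapped those of LSK-Control. LSK-Dot K1359 had an LSK-like mean of 9.41, within the control range, and the lowest GMP-like mean, 7.58. Without this array, 65 of all probe sets were called by limma for deletion in LSK cells, in place of 2. The part of such cells in the LSK values of Fcgr3, Fcgr2b and Fcer1g was not tested.

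**Figure D4:**
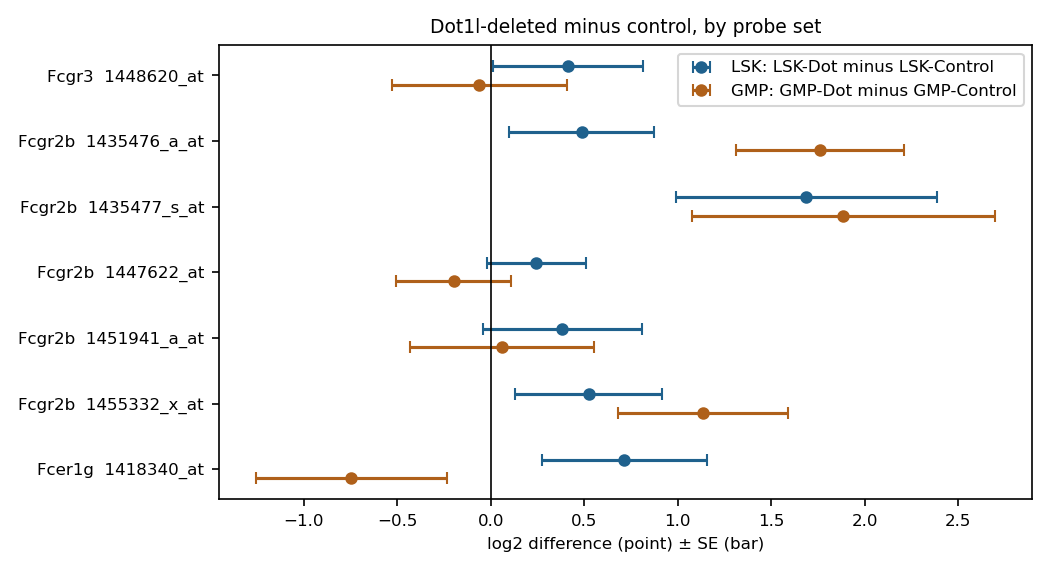
Deleted minus control difference of each probe set (horizontal axis, log2 units) in LSK cells and in GMP. Points are limma differences and bars their SE. In GMP, 1435476_a_at and 1435477_s_at lie at 1.76 and 1.89, Fcgr3 at -0.06 and Fcer1g at -0.75.

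Whether the deletion acted differently in the 2 populations was tested as the GMP effect minus the LSK effect, and none of the 7 members was called, against 0.0133% of all probe sets. The largest difference was that of Fcer1g, at -1.46 ± 0.68 (SE), with a negative difference in GMP and a positive one in LSK cells (limma adjusted p = 0.392). For 1435476_a_at it was 1.27 ± 0.59 (adjusted p = 0.392), for Fcgr3 -0.47 ± 0.62 (adjusted p = 0.696, and -0.017 without GMP-Dot K1421), and for 1435477_s_at 0.20 ± 1.07 (adjusted p = 0.931). Fcer1g and 1435476_a_at were the members at an unadjusted p under 0.05, as were 12.5% of all probe sets. The limit set by the sort gate, given above for GMP, holds for the GMP effects in these differences too.

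Other genes of the pathway were read through 4 lists, each gene by its brightest probe set. Among 16 measured genes of receptors that use Fcer1g or another adaptor chain, and of such adaptors, 4 were called higher and 1 lower in GMP-Control than in LSK-Control. Their median difference was 0.64, against 0.29 over all genes. Tyrobp, the DAP12 adaptor, rose from 10.85 to 13.06, by 2.20 ± 0.53 (SE, limma adjusted p = 0.0159), and Trem3 and Clec5a, receptors that use it, rose by 2.62 ± 0.49 (adjusted p = 0.0035) and 2.18 ± 0.45 (adjusted p = 0.00621). Hcst, the DAP10 adaptor, rose by 2.09 ± 0.52 (adjusted p = 0.0192). Cd247, the zeta chain of the T cell receptor, was the only lower call, with a difference of -2.62 ± 0.74 (adjusted p = 0.0335), and is named here after its value was seen. Of all genes, 6.5% were called higher and 4.62% lower.

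The other 3 lists are read against the same shares of all genes. Of 26 measured kinases and activating signal proteins, 0 were called higher and 2 lower in GMP-Control: Lat, a scaffold of T cell and mast cell signalling, with a difference of -2.55 ± 0.41 (limma adjusted p = 0.000959), and Plcg2, a phospholipase activated by Syk, with one of -1.59 ± 0.42 (adjusted p = 0.0251). Of 14 inhibitory signal proteins, 2 were called higher: Dok3 by 1.31 ± 0.34 (adjusted p = 0.0235) and Sirpa, an ITIM receptor of myeloid cells, by 1.35 ± 0.39 (adjusted p = 0.0355). Of 12 other Fc receptors, 2 were called higher: Pigr by 0.80 ± 0.19 (adjusted p = 0.0133), and Fcmr by 0.62 ± 0.20 (adjusted p = 0.0498) at low levels of 2.92 and 3.54. Without LSK-Dot K1272 the 4 lists held 18 called genes in place of 11, while the share of all probe sets called rose from 9.59% to 25.1%. Between the deleted populations, Trem3 was called higher (3.27 ± 0.53, adjusted p = 0.0149) and Lat lower (-2.43 ± 0.43, adjusted p = 0.0317), where 0.0495% of all genes were called higher and 0.0769% lower.

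With the deletion itself, 0 genes of the 4 lists were called in either population, by limma. Of all genes, 0.0605% were called higher and 0.033% lower in GMP, and 0 in LSK cells. In GMP the other Fc receptor genes with the smallest p were Pigr at -0.70 ± 0.21 (limma adjusted p = 0.191) and Fcgr1, the high-affinity IgG receptor, at -0.64 ± 0.20 (adjusted p = 0.206). In the other 3 lists these were Clec5a (1.28 ± 0.50) and Gp6 (-0.55 ± 0.24), Zap70 (-0.61 ± 0.33) and Blnk (-0.45 ± 0.26), and Dok1 (-1.20 ± 0.49) and Inpp5d (-0.50 ± 0.20), the gene of SHIP1. In LSK cells Fcer1a, the IgE-binding chain that pairs with Fcer1g in mast cells and basophils, differed by 1.58 ± 0.64 (adjusted p = 0.823) and Ms4a2, its beta chain, by 0.85 ± 0.48. Clec5a differed by 1.34 ± 0.43 (adjusted p = 0.616) and Pilrb1 by -0.61 ± 0.39, Plcg2 by -0.92 ± 0.40 and Gab2 by -1.27 ± 0.66, and Dok3 by 0.76 ± 0.33 and Inppl1 by 0.49 ± 0.22. The mast cell and basophil marker mean, which counts Fcer1a and Ms4a2, was 5.91 to 7.06 in LSK-Dot against 5.55 to 6.07 in LSK-Control, and its part in these values was not tested.

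The 3 members lie near each other on chromosome 1, with Fcgr4 between Fcgr2b and Fcgr3. Of the 13 measured genes around them, 0 were called by limma in any of the 5 comparisons. For the difference of effects, 0.0055% of all genes were called higher and 0.0165% lower. Between the controls these shares were 6.5% and 4.62%, and 1 of the 13 was called higher there without LSK-Dot K1272. Fcgr4, an activating IgG receptor that also uses Fcer1g, was 5.14 ± 0.38 (SD) in GMP-Control and 6.04 ± 0.45 in GMP-Dot. The GMP-Dot range lay wholly above that of GMP-Control, as for 1.86% of all probe sets, and the difference of 0.90 ± 0.35 (SE) had a limma adjusted p of 0.295. In LSK cells it differed by 0.18 ± 0.30 (adjusted p = 0.990).

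Genes whose levels followed the members were ranked by Pearson r over the 21 arrays among 11690 genes and, to leave out differences between the 4 groups, after removing group means. Fcgr3 was followed by Ncam1 (0.925), Hdc (0.913), Alas1 (0.910), Msrb1 (0.909) and B4galnt1 (0.905), and within groups by Ncam1 (0.826), Plod3 (0.811) and Cd69 (0.799). Fcer1g was followed by Gabarap (0.948), the adaptor gene Tyrobp (0.947), Sec61b (0.945), Rpl37a (0.943) and Slpi (0.943), and within groups by Cd52 (0.925), Mrps18c (0.923) and Rpl27 (0.906). For Fcgr2b, by its brightest probe set 1435477_s_at, these were Tfec (0.822), Ctsc (0.809), Fam118b (0.781), Coa8 (0.768) and Stx7 (0.765), and within groups Pias2 (0.813), Vapb (0.813) and Lmo4 (0.811). Fcgr3 and Fcer1g correlated at 0.79 with each other over all arrays and at 0.33 with group means removed.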

How the data were processed

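The authors deposited 1 table of intensities on a linear scale, processed with RMA (no version given) per the submitters' processing notes. RMA commonly ends in log2 values, and these were judged linear by their range. Scan batches and build are not stated in the labels, and scanner files were not used here. Intensities were log2-transformed without pseudocount, filter or renormalization, so probe summaries are those the authors made.

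Probe sets were named from the platform annotation: 34958 of 45101 have 1 symbol, 932 several and 9211 none. A 4-group model was fitted with limma 3.58.1 in R 4.3.3 to all 45101 probe sets on 21 arrays, with Benjamini-Hochberg adjustment over all of them and a threshold of 0.05. Exact two-sided permutation tests, 14 in all and not adjusted, stand beside it. The scripts were tested on simulated data. Members and lists were chosen with earlier results of these data known. Named were every member probe set; of each list, up to 4 called genes with the smallest p, otherwise the 2 with the smallest p (not all are printed for the neighbours, the deleted populations or the difference of effects); and the 5 genes of highest correlation with each member, or 3 within groups. Cd247 and the marker gene Ccr2 were named beyond this rule, after their values were seen. The number of arrays limits the precision. K numbers recur in the titles of both cell types, but same-numbered arrays did not deviate together (r from -0.40 to 0.26), so they were not treated as pairs. Alternatives were quantile normalization, dim or multi-match probe sets left out, array weights, a K-number block, GMP-Dot K1190 and K1272 averaged, each array left out and, chosen after seeing the data, each array's upper quartile as a covariate.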

Additional observations from a re-analysis of the deposited data

Results flagged for a closer look

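In 28 groups of a probe set's arrays, 4 held an array whose gap to its nearest neighbour was a large part of the group's range, and chance alone flags about 1 group in 20. For Fcgr3, GMP-Dot K1421 lay at 8.46, with the nearest of the other 3 arrays at 10.18. The 3 others were on 1447622_at, the dimmest Fcgr2b probe set: LSK-Control K1601 at 2.12 (nearest 2.28), LSK-Dot K1272 at 3.87 (nearest 2.50) and GMP-Control K1603 at 3.55 (nearest 2.50). K1272 is also the LSK-Dot array that correlated least with its group.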

How the results depend on the processing

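Of 680 recomputed values with a test, 655 kept their direction and their side of the threshold, 19 changed sign, 6 passed the threshold newly and 0 lost a call. Of 375 with no test (Fcgr3 and Fcgr2b between cell types, and list counts), 372 moved by less than the spread between arrays, or 1.5 times for counts, and 5 changed sign. These 5 include 1435476_a_at between controls (-0.066 without LSK-Control K1581) and 1447622_at between deleted populations (0.14 without LSK-Dot K1272). With array weights, whose estimate stopped before converging and put a weight of 45.8 on GMP-Dot K1190, 21001 of 45101 probe sets were called in GMP. There 1435476_a_at (2.06) and 1455332_x_at (1.85) passed for deletion in GMP, 1435476_a_at (1.36) and Fcer1g (-1.46) for the difference of effects, and Fcer1g (0.98) between deleted populations. Under it 1435477_s_at turned to -0.17 for the difference of effects, Fcgr3 to 0.19 for deletion in GMP, and 1455332_x_at moved to 1.82 between deleted populations. The upper quartile as covariate turned 1435477_s_at to -0.45 for the difference of effects and 1447622_at to 0.12 for deletion in GMP, and, also changing sign, moved 1447622_at to -0.30 between controls. For deletion in GMP, 1451941_a_at turned to -0.082 after quantile normalization and to -0.039 with K1190 and K1272 averaged. With each array left out in turn, deletion in GMP gave 1.60 to 1.94 for 1435476_a_at, -0.30 to 0.39 for Fcgr3, -0.19 to 0.33 for 1451941_a_at and -0.27 to 0.036 for 1447622_at, the difference of effects for 1435477_s_at was -0.50 to 0.67, and deletion in LSK for 1447622_at -0.022 to 0.34. Apart from the array weights, the cause was not tested. Without LSK-Dot K1272, 18 list genes were called between controls in place of 11, and 11326 of all probe sets in place of 4325. Probe sets called for deletion in GMP numbered 34 in all, 620 without LSK-Dot K1272, 307 without GMP-Dot K1359, 16 without GMP-Dot K1272, 11 with K1190 and K1272 averaged and 7 without GMP-Dot K1190. With the K number as replicate block, Fcer1g was higher in control GMP by 2.33 (adjusted p = 0.0325), and that comparison had 657 calls in place of 4325.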
